A study of Homo sapiens with 6 samples.

Results

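Mitosis and kinetochore transcripts were measured by RNA sequencing in AF22, an established human neural stem cell line made from reprogrammed cells and kept as dividing neuroepithelial progenitors. The members are 40 gene symbols listed by name for their roles in cell division, out of 26485 symbols in each count table, and the list leaves out the kinesins with KIF symbols. All 40 were found, and all 40 passed the filter on low counts. The comparison set 3 libraries of AF22 cells with a control short hairpin RNA (shControl, genotype labelled WT) against 3 libraries of AF22 cells whose genotype label is a knockdown of both COMMD3 and the readthrough COMMD3-BMI1. The labels give no reagent for the knockdown, no culture time, and no word on whether the replicates were separate cultures or clones. P-values here are set by the spread from library to library, and that spread may be technical. The design asks how the transcriptome of human neural stem cells differs when COMMD3 and COMMD3-BMI1 are lowered.

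Cells enter mitosis when CDK1, bound to B-type cyclins, is switched on by CDC25 phosphatases and helped by Polo and Aurora kinases. Spindle microtubules then attach to kinetochores, protein assemblies built on the CENP-A chromatin of the centromere, while the spindle checkpoint holds back anaphase until every chromosome is attached. CDC20 and the anaphase-promoting complex (APC/C) then mark securin and cyclin B for destruction, separase cuts cohesin, and the cell divides at the midzone. Most of these transcripts are low in G1 and accumulate in G2 and mitosis, so in a bulk sample their level follows the share of cycling cells. In such bulk RNA, fewer cells in G2 and mitosis and less RNA per such cell cannot be told apart.

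Many promoters of such genes carry a cell cycle genes homology region (CHR), the element at which the MuvB core binds, as part of the repressive DREAM complex in resting cells and with B-MYB and FOXM1 in cycling cells. RefSeq promoters (GRCh38.p14, 250 bases before to 50 after the start site, the entry listed earliest for each gene) were found for 33 of the 40 genes. They were searched for TTTGAA on both strands and for TTCGAA, which reads the same on both, here together called CHR. A match that began within 50 bases of the start site was present in 20 of 33 member promoters (60.6%), against 331 of 10130 promoters of tested genes (3.3%) and 1379 of all 27305 (5.1%). CCAAT on either strand, the word bound by NF-Y, was present in 26 of 33 (78.8%), against 36.7% of promoters of tested genes. The windows below show the match in capitals for 6 members that were lower in knockdown and 2 that did not pass the test, each 30 bases long in the direction of transcription. They show the element in genes on both sides of the threshold, whose difference was not tested. In the ANLN window another match, TTTGAA, directly follows the marked one and is left in lower case.
MKI67: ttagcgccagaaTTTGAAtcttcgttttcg
CENPF: ccggtggcggctgcgggcagTTTGAAttag
ANLN: tcggcgctgaaaTTCAAAtttgaacggctg
INCENP: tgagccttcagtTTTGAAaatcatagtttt
CDCA8: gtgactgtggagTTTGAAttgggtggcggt
PLK1: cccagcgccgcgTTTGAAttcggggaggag
CCNB2: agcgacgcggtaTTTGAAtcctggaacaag
ESPL1: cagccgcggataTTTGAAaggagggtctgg
These windows lie at chr10:128126453-128126482 on the minus strand for MKI67 and, on the plus strand, at chr1:214603215-214603244 for CENPF, chr7:36389824-36389853 for ANLN, chr11:62123989-62124018 for INCENP, chr1:37692481-37692510 for CDCA8, chr16:23678848-23678877 for PLK1, chr15:59105105-59105134 for CCNB2 and chr12:53268256-53268285 for ESPL1. The match begins 47 bases before the start site in MKI67, 29 before it in PLK1 and in CCNB2, and at base 41 after it in CENPF. A match of these letters is not evidence of binding, and a missing match is not evidence that the element is absent.

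The libraries held between 7294687 and 11579849 counts, and 99.858% to 99.869% of them fell in the 13632 genes tested. COMMD3 checked the labels: it had 31.7, 29.7 and 27.6 CPM (counts scaled to a common, TMM-adjusted library size) in control and 12.9, 11.3 and 10.5 CPM in knockdown (log2 fold change −1.37, SE 0.0996 and edgeR adjusted p = 2.34e-12). COMMD3-BMI1 was listed at 0 in all 6 libraries, controls included, so its knockdown could not be checked here. BMI1 was at 110.2 ± 2.41 CPM in the controls against 104.8 ± 1.79 CPM with the knockdown (SD, n = 3 each) and did not pass (edgeR adjusted p = 0.206). Neural stem cell markers were expressed in every library, with 2070 to 3251 counts of SOX2 and 4931 to 7464 of NES.

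Mitosis and kinetochore transcripts were mostly lower in knockdown, by small folds. Of the 40 genes, 26 fell (65%), none rose and 14 did not pass (quasi-likelihood test of edgeR, with p adjusted over all tested genes by Benjamini-Hochberg, threshold 0.05). Over all tested genes, 18.1% fell and 15.3% rose. The members were chosen with earlier results of these data known, so these shares describe the list and are no independent test. The log2 fold change was below 0 for 37 of 40 members, against 49.6% of all tested genes, and its median was −0.15 against 0.00. Among the genes that fell the fold ranged from 1.09 to 1.51, with a median of 1.16. At 1.2-fold or more, 8 members fell (20%), against 9.95% of all tested genes. All 3 knockdown libraries lay below all 3 control libraries for 31 members (77.5%), against 22.7% of all tested genes. No member had all 3 knockdown libraries above all 3 controls, against 21.6% of all tested genes. DESeq2 called 17 members lower, all of them among the 26, and called 12.5% of all tested genes lower.

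The members together took 0.585%, 0.586% and 0.592% of the counts of control replicates 1 to 3, and 0.509%, 0.521% and 0.513% of the counts of knockdown replicates 1 to 3. The groups did not overlap in this share. The 5 genes MKI67, TOP2A, CENPF, CENPE and ASPM, picked here after their values were seen, summed to between 1682 and 1822 CPM in control and between 1221 and 1325 CPM in knockdown. The other 35 genes summed to between 4142 and 4230 CPM in control and between 3791 and 3873 CPM in knockdown, so the groups were apart without those 5 as well. The plot of every member by library shows the shift in all 3 knockdown libraries.

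**Figure D1:**
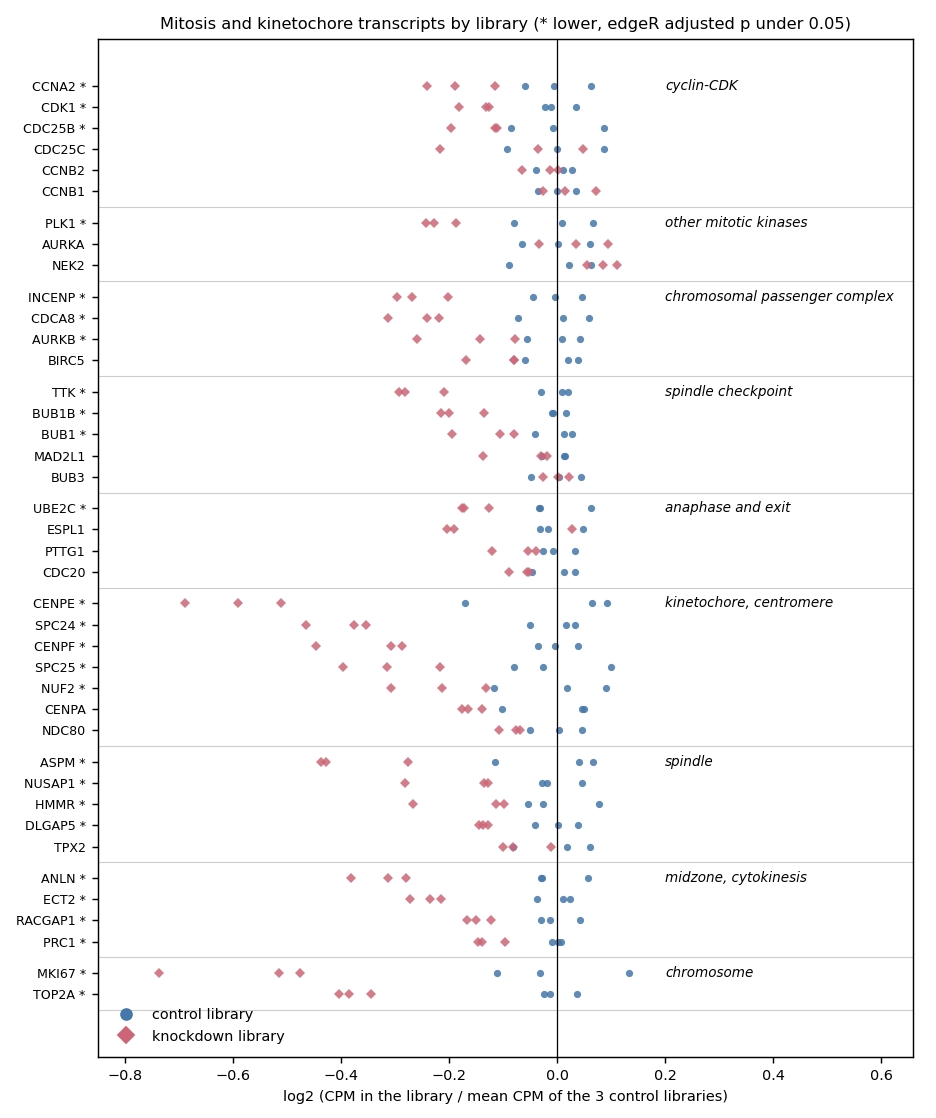
Level of each of the 40 transcripts in each of the 6 libraries, as log2 of its CPM over the mean CPM of the 3 control libraries (circles control, diamonds knockdown), grouped by role, with an asterisk for genes lower at edgeR adjusted p under 0.05. The diamonds lie to the left of the circles for 31 genes, furthest for CENPE and MKI67, and mix with the circles for genes such as CCNB1, AURKA and BUB3.

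For 16 of the 26 genes the call held under all 17 alternative analyses: ANLN, ASPM, BUB1B, CCNA2, CDCA8, CDK1, CENPE, CENPF, ECT2, INCENP, MKI67, NUSAP1, PLK1, SPC25, TOP2A and TTK. The other 10 calls were each lost when some single library was left out, which also leaves fewer libraries for the test. Over all tested genes the number changed went from 4545 to between 3608 and 4296 with 1 library left out. Without control replicate 1, DLGAP5, HMMR, NUF2 and SPC24 no longer passed (edgeR adjusted p from 0.0593 to 0.126). Without control replicate 2, AURKB, BUB1, CDC25B, PRC1 and UBE2C did not pass (0.0589 to 0.106), and without control replicate 3, AURKB, BUB1, CDC25B and RACGAP1 did not (0.0507 to 0.226). Leaving out knockdown replicate 1 lost BUB1, CDC25B, PRC1, RACGAP1 and SPC24 (adjusted p from 0.0558 to 0.217), replicate 2 lost CDC25B, DLGAP5, HMMR and PRC1 (0.0574 to 0.186), and replicate 3 lost AURKB and CDC25B (0.051 to 0.134). By DESeq2, 9 of these genes did not pass (adjusted p from 0.0522 to 0.157), all but NUF2. The call of CDC25B was lost under 12 of the 17 alternatives.

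Both genes that act on the chromosome itself fell. MKI67 encodes Ki-67, which coats mitotic chromosomes and is used as a marker of cycling cells. It lies on chromosome 10 from 128096659 to 128126385 on the minus strand (GRCh38, GENCODE v29). It had 370.0, 391.3 and 438.3 CPM in control and 239.9, 287.2 and 279.8 CPM in knockdown. Every knockdown library was below every control library, and control replicate 3 was the highest of the 6. MKI67 fell by 0.57 on the log2 scale (SE 0.0574 and edgeR adjusted p = 3.38e-09), a 1.48-fold difference. TOP2A, topoisomerase IIα, untangles sister DNA molecules and was the most abundant member in CPM, with 599.8, 604.0 and 626.0 CPM in control and 460.9, 480.6 and 466.7 CPM in knockdown. Its libraries were close together within each group, and it fell by 0.38 (SE 0.0432 and edgeR adjusted p = 4.04e-08).

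All 7 kinetochore and centromere genes had a log2 fold change below 0, 5 of them fell, and the median of −0.32 was the second lowest of the 9 roles, after the pair of chromosome genes at −0.47. CENPE, a kinesin motor that carries chromosomes to the spindle equator, lies on chromosome 4 from 103105806 to 103198409 on the minus strand. It had 146.2, 124.2 and 149.2 CPM in control and 86.8, 92.9 and 98.1 CPM in knockdown, with control replicate 2 lower than the other controls and still above every knockdown library. CENPE fell by 0.59 on the log2 scale (SE 0.0568 and edgeR adjusted p = 1.11e-09), the greatest fall of the 40 genes. CENPF, a large coiled-coil protein of the outer kinetochore, had 369.4, 361.4 and 380.8 CPM in control and 271.9, 303.8 and 299.3 CPM in knockdown, and fell by 0.35 (SE 0.046 and edgeR adjusted p = 6.66e-07). CENPA, the histone H3 variant that marks the centromere, averaged 43.82 ± 2.58 CPM in the controls against 39.22 ± 0.516 CPM with the knockdown (SD, n = 3 each), and did not pass (edgeR adjusted p = 0.0764).

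NDC80, NUF2, SPC24 and SPC25 form the NDC80 complex, the rod that grips microtubule ends, and their transcripts did not move by equal amounts. NDC80 had 65.0, 62.6 and 67.0 CPM in control and 61.9, 61.6 and 60.2 CPM in knockdown, groups that lay close together without overlap (log2 fold change −0.08, SE 0.0532 and edgeR adjusted p = 0.246). NUF2, its partner at the microtubule end, fell by 0.22 (SE 0.0624 and edgeR adjusted p = 0.00658). SPC25, at the end that faces the centromere, had 33.7, 30.9 and 29.7 CPM in control and 27.0, 25.3 and 23.9 CPM in knockdown, and fell by 0.32 (SE 0.0806 and edgeR adjusted p = 0.0027). SPC24, the partner of SPC25, fell by 0.40 (SE 0.131 and edgeR adjusted p = 0.0186) at the lowest level of any member, with 70 counts in the lowest library and 506 over all 6. The ratio of SPC25 to NDC80 counts, which no scaling between libraries can change, was 0.518, 0.493 and 0.444 in control and 0.437, 0.410 and 0.397 in knockdown. That of SPC24 to NDC80 was between 0.159 and 0.162 in control and between 0.122 and 0.133 in knockdown, while the ratio of NUF2 to NDC80 overlapped between the groups (0.872 to 0.969 and 0.795 to 0.873). These pairs were picked with their values in view, so their ratios are given without a test.

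In the chromosomal passenger complex, which corrects faulty attachments and then guides cytokinesis, 3 of 4 genes fell. INCENP, the scaffold, had 91.3, 97.2 and 93.9 CPM in control and 78.1, 81.8 and 76.6 CPM in knockdown (log2 fold change −0.25, SE 0.0485 and edgeR adjusted p = 0.000128). CDCA8, which encodes borealin, had 99.5, 109.0 and 105.4 CPM in control and 84.2, 89.9 and 88.5 CPM in knockdown (log2 fold change −0.25, SE 0.0486 and edgeR adjusted p = 0.000138). The groups stood apart for both of these subunits. AURKB, the kinase of the complex, fell by 0.16 (edgeR adjusted p = 0.0168), and BIRC5, which encodes survivin, had a log2 fold change of −0.11 that did not pass (edgeR adjusted p = 0.0651).

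Of the 5 spindle checkpoint genes, 3 fell, and these encode the kinases and the pseudokinase of the pathway. TTK, the kinase MPS1 that starts checkpoint signalling, had 99.9, 97.2 and 100.7 CPM in control and 81.0, 81.7 and 85.9 CPM in knockdown (log2 fold change −0.26, SE 0.047 and edgeR adjusted p = 6.92e-05). BUB1B, which encodes BUBR1, had 145.6, 143.2 and 142.9 CPM in control and 124.0, 131.1 and 125.3 CPM in knockdown (log2 fold change −0.18, SE 0.0437 and edgeR adjusted p = 0.00143). It shares 10.2% of its exon bases with the readthrough BUB1B-PAK6. BUB1 fell by 0.12 (edgeR adjusted p = 0.0321). The checkpoint proteins without a kinase fold gave other values. BUB3, which docks BUB1 and BUBR1 at kinetochores, had 159.7, 149.8 and 155.4 CPM in control and 152.1, 157.4 and 155.1 CPM in knockdown, groups that overlapped fully (log2 fold change −0.00, SE 0.0436 and edgeR adjusted p = 0.969). MAD2L1, which encodes MAD2, stood at −0.06 on the log2 scale (edgeR adjusted p = 0.301). That kinases and other checkpoint genes differ was not tested.

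Of the 6 genes of the cyclin-CDK switch that drives entry into mitosis 3 fell, with a median of −0.09. CDK1 had 178.5, 171.6 and 172.9 CPM in control and 159.7, 159.2 and 153.7 CPM in knockdown, and it fell by 0.15 (SE 0.0429 and edgeR adjusted p = 0.00807). CCNA2, cyclin A2, which acts from S phase to early mitosis, had 151.1, 145.6 and 158.3 CPM in control and 133.1, 128.4 and 140.0 CPM in knockdown, and fell by 0.18 (SE 0.0462 and edgeR adjusted p = 0.0035). Of the exon bases of CCNA2, 9.08% are shared with EXOSC9 on the other strand. The B-type cyclins did not pass. CCNB1 had 196.2, 191.3 and 200.9 CPM in control and 198.2, 206.2 and 192.6 CPM in knockdown (log2 fold change 0.02, SE 0.0436 and edgeR adjusted p = 0.749). CCNB2 had 115.9, 121.4 and 119.9 CPM in control and 118.0, 119.2 and 113.8 CPM in knockdown (log2 fold change −0.02, SE 0.0447 and edgeR adjusted p = 0.717). The knockdown values of both cyclins fell inside or across the range of the controls. CDC25B, a phosphatase that activates CDK1, fell by 0.13 (edgeR adjusted p = 0.0442), and its paralog CDC25C stood at −0.06 on the log2 scale (edgeR adjusted p = 0.562).

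Ratios within a library do not depend on scaling, but they can carry a dependence on transcript length and GC content. The log2 fold change fitted to length and GC content was −0.076 for MKI67, −0.031 for CENPE and 0.057 for CCNA2. It was 0.060 for CCNB1, 0.079 for AURKB and 0.061 for AURKA. Counts of CCNA2 over CCNB1 were 0.770, 0.761 and 0.788 in control and 0.671, 0.622 and 0.727 in knockdown, with no overlap. Counts of MKI67 over CCNB1 were 1.89, 2.05 and 2.18 in control and 1.21, 1.39 and 1.45 in knockdown, again apart. Those of CENPE over CCNB1 were 0.745, 0.649 and 0.743 in control and 0.438, 0.450 and 0.510 in knockdown. AURKB over AURKA gave 1.08, 1.08 and 1.21 in control and 0.990, 0.993 and 0.956 in knockdown. In each of these 4 pairs all knockdown ratios lay below all control ratios. The 4 pairs were chosen for their difference and carry no test. CDC25B over CDC25C, also read without a test, overlapped between the groups (2.14 to 2.42 in control and 2.04 to 2.45 in knockdown).

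Among the other mitotic kinases, PLK1 alone fell. PLK1, Polo-like kinase 1, acts at centrosomes, kinetochores and the midzone, and had 150.2, 159.7 and 166.3 CPM in control and 134.1, 139.4 and 135.6 CPM in knockdown (log2 fold change −0.21, SE 0.0457 and edgeR adjusted p = 0.000481). Of its exon bases, 12.5% are shared with genes on the other strand, ERN2 among them. AURKA, the centrosomal Aurora kinase, had 90.3, 94.0 and 86.2 CPM in control and 92.4, 96.3 and 88.2 CPM in knockdown (log2 fold change 0.03, SE 0.0492 and edgeR adjusted p = 0.694). NEK2, a kinase that parts the centrosomes, had the highest log2 fold change of the 40, 0.08 (SE 0.0662 and edgeR adjusted p = 0.382). CCNB1, AURKA and NEK2 were the 3 members above 0. After the dependence on transcript length and GC content was removed, CCNB1 (−0.0365) and AURKA (−0.0303) were below 0. NEK2 (0.0261) and BUB3 (0.0581) were then above 0, and none of them passed.

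Of the 5 spindle genes, 4 fell. ASPM, which focuses spindle poles and is the gene most often mutated in primary microcephaly, had 223.5, 200.7 and 227.5 CPM in control and 161.4, 160.5 and 179.4 CPM in knockdown, and fell by 0.38 (SE 0.0504 and edgeR adjusted p = 6.76e-07). Its highest knockdown library was still below its lowest control library. NUSAP1, which bundles microtubules near chromosomes, fell by 0.18 (edgeR adjusted p = 0.00344), HMMR by 0.16 (0.0151) and DLGAP5, a kinetochore-fibre protein, by 0.14 (0.014). Of the exon bases of NUSAP1, 62.2% are shared with a locus on the same strand. TPX2, which activates Aurora A on the spindle, had a log2 fold change of −0.06 (SE 0.0455 and edgeR adjusted p = 0.33).

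All 4 genes of the spindle midzone and cytokinesis fell. ANLN, anillin, the scaffold of the contractile ring, had 179.7, 190.5 and 179.3 CPM in control and 140.5, 147.3 and 150.8 CPM in knockdown (log2 fold change −0.33, SE 0.0447 and edgeR adjusted p = 1.08e-06). ECT2, the exchange factor that switches on RhoA at the cleavage furrow, had 184.7, 190.8 and 192.7 CPM in control and 156.9, 163.2 and 160.9 CPM in knockdown (log2 fold change −0.24, SE 0.0429 and edgeR adjusted p = 6.1e-05). Both stood well apart between groups. RACGAP1, the partner that brings ECT2 to the midzone, fell by 0.14 (edgeR adjusted p = 0.0116) and PRC1, which cross-links midzone microtubules, by 0.13 (edgeR adjusted p = 0.0196). Of the exon bases of PRC1, 7.35% are shared with a gene on the other strand and 57.6% with a locus on the same strand, so its counts are less certain.

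In the group of anaphase and exit from mitosis, 1 of 4 genes fell. UBE2C, the ubiquitin-conjugating enzyme that works with the APC/C, had 102.4, 109.5 and 102.6 CPM in control and 93.0, 96.0 and 92.8 CPM in knockdown (log2 fold change −0.16, SE 0.0466 and edgeR adjusted p = 0.00922). It has 4 pseudogenes by name in GENCODE v29, which may share reads with it. The same holds, with fewer pseudogenes by name, for MKI67, CCNB2, AURKA, NEK2, BUB1, BUB3, CDC20, DLGAP5 and RACGAP1. CDC20, the APC/C activator, had 156.6, 163.3 and 165.6 CPM in control and 152.1, 156.2 and 155.7 CPM in knockdown (log2 fold change −0.06, SE 0.0433 and edgeR adjusted p = 0.28). PTTG1, which encodes securin and has near-identical copies in the genome, stood at −0.07 on the log2 scale (edgeR adjusted p = 0.292). ESPL1, which encodes separase, had one of −0.12 (edgeR adjusted p = 0.0861).

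Between genes, levels per kilobase of the longest coding transcript ran from 4.50 CPM per kilobase (SPC24) to 114.7 (UBE2C) in control. TOP2A at 105.9, CDC20 at 91.1, CCNB1 at 90.4 and CDK1 at 89.5 CPM per kilobase followed UBE2C. MKI67 and CENPE, which fell most, had 31.5 and 16.2 CPM per kilobase in control and 21.2 and 10.8 in knockdown.

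Of the 6 members with the greatest falls, CENPE, MKI67, TOP2A, ASPM and CENPF have transcripts of 5000 bases or more, and SPC24 has one of 2315 bases. Across the 40 genes the log2 fold change had a Pearson correlation of −0.48 and a Spearman correlation of −0.35 with transcript length (log2 of bases for Pearson). Without ASPM and MKI67, whose lengths lie farthest from the median, these were −0.33 and −0.25. Over 12874 tested genes with a known length they were −0.08 and −0.18. The points share the same 6 libraries and no p is given. Of the 8 members of 5000 bases or more, 5 fell, with a median of −0.36, where 28.3% of all such genes fell with a median of −0.05. The 3 long members that did not pass were BUB3, MAD2L1 and ESPL1. Of the 17 members under 2500 bases, 9 fell (52.9%), with a median of −0.15, where 9.6% of all such genes fell with a median of 0.05. Of the 15 members between these lengths, 12 fell (80.0%), with a median of −0.15, where 18.1% of all such genes fell with a median of 0.00. The members' median was below that of all genes in each of the 3 length classes. SPC25, at 1354 bases, was also among the 8 members that fell 1.2-fold or more. After the dependence on transcript length and GC content was removed from each library, 29 members were lower and the median was −0.21, while 19.7% of all tested genes were lower.

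**Figure D2:**
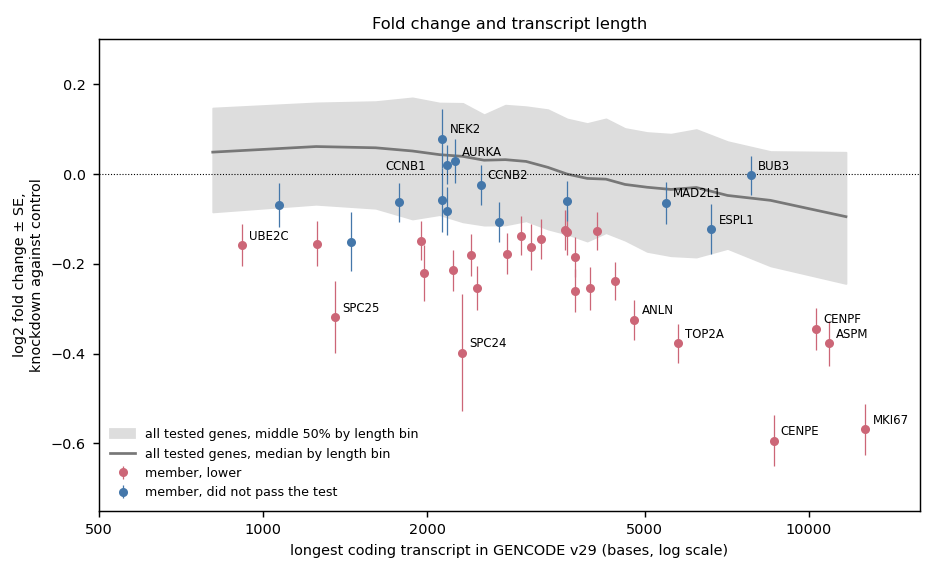
Log2 fold change (± SE) of the 40 members against the length of their longest coding transcript on a log scale, with the median and the middle 50% of all tested genes in 20 length bins in grey. MKI67, CENPE, ASPM, CENPF and TOP2A are long and low, while BUB3 at 7828 bases lies near 0.

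Fold changes were then set beside the promoter match. Of the 20 members with a CHR match within 50 bases of the start site, 15 fell, with a median log2 fold change of −0.18. Of the 13 members with a promoter sequence and no such match, 8 fell, with a median of −0.15. CENPE, SPC24 and CCNA2 fell and held no CHR match in the window, while CCNB2, CENPA, ESPL1, MAD2L1 and NDC80 held one near the start and did not pass. Other spellings of the element and other start sites of these genes were not searched. Outside the members, 311 tested genes held a match within 50 bases of the start, of which 100 fell (32.2%), with a median of −0.08. Of 9786 tested genes outside the members without such a match, 17.9% fell, with a median of 0.005. No test was made of these counts.

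**Figure D3:**
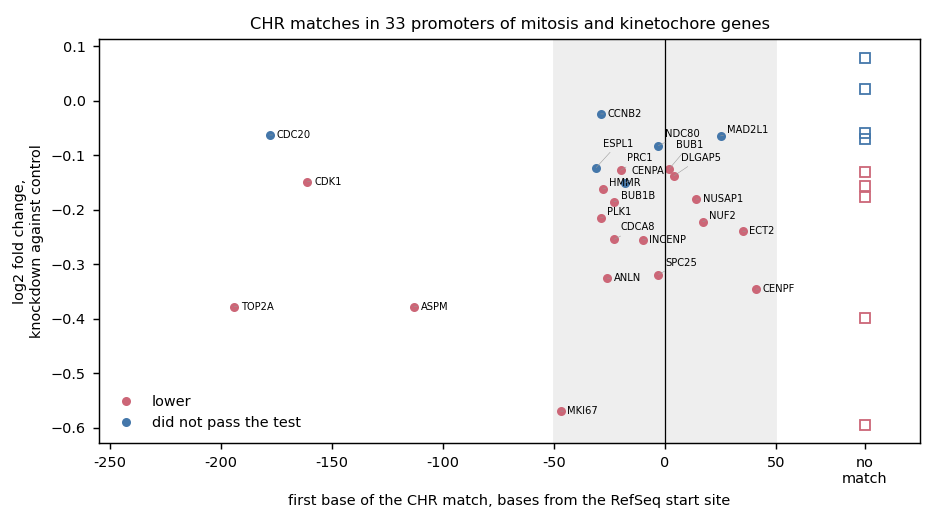
Position of the CHR match (first base, in bases from the RefSeq start site, negative before it) against the log2 fold change for the 33 members with a promoter sequence, with open squares for the 9 without a match. Most matches lie in the shaded 50 bases on either side of the start, and genes lower in knockdown occur with, far from and without a match.

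In the 3′ UTR, 4 members hold the word TCATCCA, which is shown because its presence went with lower values in these data. It was singled out from these same libraries, where it ranked at place 2 of 15957 words of 7 bases by the difference in mean log2 fold change (limited to between −1 and 1) between genes with and without it (−0.15, 1447 genes with it). The lowest word, CATCCAA, overlaps it. MKI67 holds it at bases 1352, 1651 and 2243 of the 2531 bases of its longest 3′ UTR in GENCODE v29, and CDK1, SPC25 and BUB3 hold it once each. The sites of MKI67, CDK1 and BUB3 are given with the word in capitals.
MKI67, base 1352: ttctcacagcgTCATCCAtgatcgtaagg
MKI67, base 1651: atagaaaaattTCATCCAgccatatgcct
MKI67, base 2243: ccaagatcattTCATCCAgtcctgagctc
CDK1, base 196: atggcactgaaTCATCCAtattttaatga
BUB3, base 5885: gggcctgtcacTCATCCAgaattgaatct
Of these 4 genes 3 fell (median −0.23), and BUB3 had the log2 fold change nearest to 0 of all members. Of the 36 members without the word, 23 fell, with a median of −0.15, the same as the median of all 40. CENPE, TOP2A, CENPF and ASPM are among the 36. Over all tested genes with a 3′ UTR, 560 of 1447 with the word fell (median −0.10) and 1702 of 10604 without it (median 0.015). The word was picked by this difference, so these shares are no separate support, and 3′ UTR length was not taken into account.

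Other genes of the same processes were read from 9 lists drawn up by function, also with earlier results of these data known. The counts of each list stand beside the 18.1% of all tested genes that fell and the 15.3% that rose. The list named for control of mitotic entry and exit also holds spindle and midbody genes. Of its 28 genes, 18 fell and none rose, with a median log2 fold change of −0.19. CDC25A, a phosphatase that activates CDKs, fell from 135.9 ± 7.18 to 102.8 ± 1.51 CPM (SD, n = 3 each; edgeR adjusted p = 7.42e-08). CIT, citron kinase of the midbody, and CKAP2L, a spindle protein of neural progenitors, fell 1.32-fold and 1.27-fold. The complexes that shape and hold chromosomes were lower too. Of 8 condensin genes 6 fell, led by SMC4, NCAPH and NCAPG2, from 303.6 ± 7.88 to 237.7 ± 2.95 CPM for SMC4. Of 13 cohesin genes and regulators 10 fell, led by RAD21 (357.5 ± 10.2 to 265.6 ± 10.2 CPM), the subunit that separase cuts, PDS5A and STAG2.

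At the kinetochore outside the members, 5 of 16 inner kinetochore genes fell and none rose. Of all tested genes, 18.1% fell and 15.3% rose. CENPO, CENPK and CENPI fell by between 0.49 and 0.52 on the log2 scale, more than any member but CENPE and MKI67. Among 7 genes of CENP-A loading the median was −0.08 and 1 gene fell. In the outer kinetochore and its checkpoint partners, 13 of 21 fell, led by ZWINT, CLASP1 and CASC5 (the older symbol of KNL1), and 2 rose, MAD2L1BP and PMF1, named after their values were seen. Of 18 γ-tubulin and augmin genes 6 fell, led by TUBG1, HAUS6 and HAUS5. The call of HAUS5 was lost without control replicate 1 (edgeR adjusted p = 0.0833) and by DESeq2 (adjusted p = 0.0693), and without that library 3 of the 18 fell.

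The APC/C and its regulators were read in the same way, beside the 18.1% of all tested genes that fell and the 15.3% that rose. Of 18 genes 1 fell, ANAPC16, from 81.88 ± 5.40 to 60.87 ± 3.61 CPM, and 2 rose, CDC23, from 111.5 ± 1.88 to 132.4 ± 1.71 CPM, and ANAPC13, from 77.63 ± 2.63 to 89.0 ± 3.32 CPM (SD, n = 3 each). The median was 0.02. Without knockdown replicate 3, 2 genes of this list fell and 4 rose. Most APC/C subunits are known to be expressed throughout the cell cycle, and whether this bears on the median of the list was not tested. Among 12 genes of the DREAM, MuvB and FOXM1 regulators 6 fell and 2 rose. FOXM1, the transcription factor of G2 genes, fell from 196.6 ± 10.6 to 153.1 ± 3.10 CPM (edgeR adjusted p = 3.54e-07), and RBL2, the pocket protein p130 of the repressive complex, fell from 88.36 ± 1.63 to 63.38 ± 2.06 CPM (edgeR adjusted p = 6.48e-09). TFDP2, a dimer partner of E2F, rose 1.21-fold. The other gene that rose, E2F5, is named after its values were seen. Without control replicate 1 or knockdown replicate 1, 1 gene of this list rose.

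**Figure D4:**
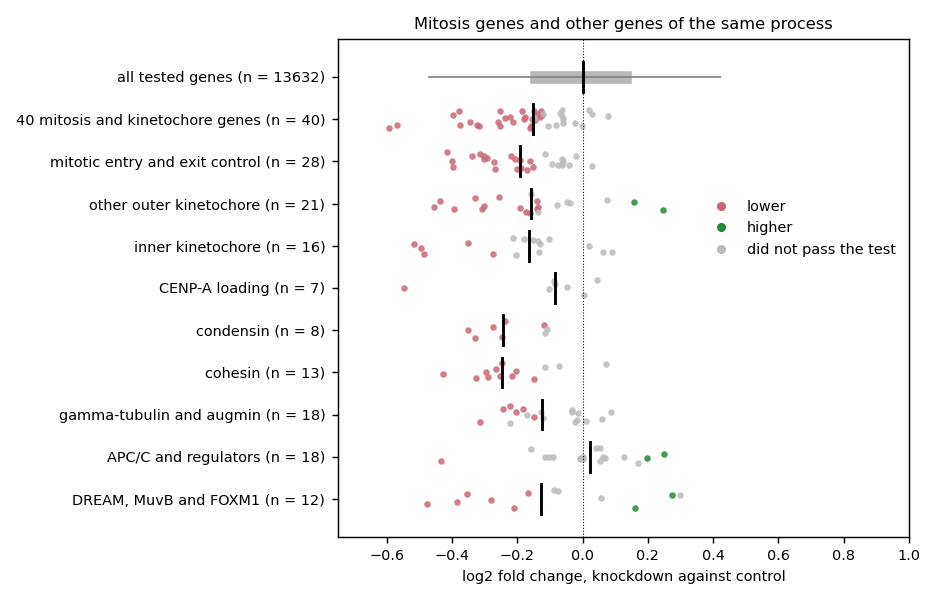
Log2 fold change of each gene (points) and the median (black bar) for the 40 members and 9 lists of related genes, with all tested genes as a median, a thick bar for the middle 50% and a line from the 5th to the 95th percentile. The medians of cohesin (−0.25), condensin (−0.24) and mitotic entry and exit control (−0.19) lie lowest, and the median of the APC/C list lies at 0.02.

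Markers of other cell types were read beside these results. The summed level of 10 neuron markers was between 809.2 and 864.9 CPM in control and between 737.1 and 773.4 CPM in knockdown. Of the 6 tested, ELAVL3 and NEFL fell, and STMN2 and ELAVL4 were at 0 in all 6 libraries. The 11 neural stem cell markers summed to between 2497 and 2663 CPM in control and between 2528 and 2608 CPM in knockdown, with 4 lower and 1 higher. VIM and NES had the most counts in this sum, and neither passed. PROM1, HES1, ZBTB16 and SOX2 fell, SOX2 by 0.15 on the log2 scale (edgeR adjusted p = 0.00909), and MSI1 rose. Among 6 astrocyte markers, 4 tested, S100B fell and GJA1 rose, and GFAP was at 0. GJA1 lost its call without control replicate 1 (edgeR adjusted p = 0.0674) or knockdown replicate 2 (0.0628), and after the length and GC trend was taken out (0.113). Of 6 oligodendrocyte markers, 4 tested, 2 fell, OLIG1 with the smallest adjusted p, and SOX10 was at 0. Of 6 pluripotent markers, 3 tested, LIN28A rose and POU5F1 fell. Of 6 endothelial markers, 4 tested, KDR, CDH5 and PECAM1 fell. All 6 together summed to between 137.4 and 144.9 CPM in control and between 93.2 and 105.3 CPM in knockdown. Without knockdown replicate 1, PECAM1 did not pass (edgeR adjusted p = 0.0507). Leukocyte markers summed to under 1 CPM in each library. The median log2 fold change of the tested markers was −0.147 for neural stem cell, −0.118 for neuron and −0.097 for astrocyte markers. It was −0.424 for oligodendrocyte, −0.013 for pluripotent and −0.475 for endothelial markers, beside −0.153 for the 40 members. A median of that size was thus not particular to the members, though these marker medians rest on 3 to 11 tested genes. Genes moved both ways in the neural stem cell, astrocyte and pluripotent lists. None rose in the neuron, oligodendrocyte and endothelial lists or among the 40 members. The part of these markers in the lower mitosis transcripts was not tested.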

How the data were processed

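Each sample has 1 table deposited by the authors, holding raw whole-number counts by gene symbol. Per the submitters' processing notes the tools were bedtools, STAR 2.7.10a and Trim Galore 0.6.6, and the build was hg38. How reads were counted, with which strand setting and annotation, is not given in the sources used here, so genes on opposite strands may share reads. Per the labels' protocols, 700 ng of total RNA entered each directional library.

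Counts were filtered with filterByExpr, scaled by TMM and tested with the edgeR 4.0.16 quasi-likelihood test (R 4.3.3) over 6 libraries without a covariate, with Benjamini-Hochberg adjustment over 13632 genes and a threshold of 0.05. The SE is the log2 fold change divided by the root of F. The fit was also run on counts simulated from the model that edgeR assumes. Such a run cannot show how well that model holds for these data. GENCODE v29 (GRCh38) held 90.2% of symbols and gave their coordinates and lengths, with 3′ UTRs for 12051 tested genes, and 6 list genes were matched by older symbols. No replicate pair agreed within sampling noise (chi-square per degree of freedom 1.23 to 1.994 within groups). Alternatives used DESeq2 1.42.0, limma 3.58.1 (voom), other scalings and filters, a replicate block, and each library left out. Members and lists were chosen with earlier results of these data known. Every member is accounted for, with library values for the 12 smallest and 3 largest adjusted p and for each role. From each related list the 3 called genes with the smallest adjusted p are named, except that some items are not reported here. Python 3.11.15, pandas 2.3.3 and Matplotlib 3.10.9 made summaries and figures.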

Additional observations from a re-analysis of the deposited data

How the results depend on the processing

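None of the 40 members was called higher under any of the 17 alternatives, and no called member reversed its direction. The number of members lower was 26, between 21 and 24 with 1 library left out, and 17 by DESeq2. The number of all tested genes changed was 4545, between 3608 and 4296 with 1 library left out, 2877 by DESeq2 and 2943 at an adjusted p under 0.01. With the length and GC trend removed, BIRC5, CDC20, CENPA and PTTG1 were also lower (edgeR adjusted p from 0.00801 to 0.0279), and the related lists had 8 inner kinetochore genes, 2 of CENP-A loading and 2 of the APC/C lower, and 1 outer kinetochore gene and 1 DREAM, MuvB and FOXM1 gene higher. By DESeq2, 2 γ-tubulin and augmin genes were lower, and 1 outer kinetochore gene and 1 DREAM, MuvB and FOXM1 gene were higher. At an adjusted p under 0.01, 3 γ-tubulin and augmin genes were lower, and 1 gene was higher in each of the outer kinetochore and DREAM, MuvB and FOXM1 lists. With 1 library left out, the range was 1 to 2 for CENP-A loading genes lower, 1 to 2 for outer kinetochore genes higher, 1 to 2 and 2 to 4 for APC/C genes lower and higher, 3 to 6 for γ-tubulin and augmin genes lower, and 1 to 3 for DREAM, MuvB and FOXM1 genes higher. The cause of these shifts was not tested. With the replicate number as a block, 28 members were lower, with BIRC5 and ESPL1 added (edgeR adjusted p = 0.0333 to 0.0355), and 2 APC/C genes. With that block, 5247 of all tested genes changed, against 4545. The labels give no shared source for equal numbers, so the numbers were not taken as pairs. Deviations of same-numbered libraries correlated at 0.0856, 0.0098 and 0.0805. Those of differently numbered libraries from different groups correlated at −0.112 to 0.0412. Replicates 1 and 3 correlated most with their own number, and control replicate 2 more with knockdown replicate 1 (0.0412). Whether equal numbers share a source cannot be told from these values. Depth limits SPC24 most, at 70 counts in its lowest library.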
